A study of Mus musculus with 5 samples.

Results

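The genes described here are 40 immediate-early and early response genes, listed by name, out of the 55487 genes in the counts table. They are genes that cells switch on within minutes to hours of serum, growth factors, synaptic activity or stress, largely through transcription factors that are already present in the cell. The list holds transcription factors (the FOS, JUN, EGR, NR4A and KLF families, *Atf3*, *Maff*, *Myc* and *Srf*), proteins that limit the response (dual-specificity phosphatases, *Zfp36*, *Btg2*) and effectors such as *Arc* and *Ptgs2*. All 40 were found in the table, all 40 passed the filter on low counts, and 39 had a mean of at least 1 CPM (read counts scaled to a common library total after TMM normalization) over the 4 libraries that were compared first. The remaining gene, *Dusp2*, was at 8 to 26 counts in those libraries.

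HT22 cells, a line of mouse hippocampal neuronal origin, were grown in medium with 10% serum. They were collected 48 h after transfection with 10 nM of siRNA. The GAS5 siRNAs were siRNA210, given in 1 library, and siRNA596, given in 2, and a negative control (NC) siRNA was given in 2. The NC samples are described as untreated in one label, whereas their titles and the protocol give NC siRNA. GAS5 is a long non-coding RNA, and the comparison asked how its knockdown (KD) affected these genes. By the titles and the protocol all cells received siRNA and transfection reagent. A response to transfection that all groups share then cannot be read from these libraries. Had the NC cells been untreated, such a response could not be told apart from one to KD. The labels do not say whether replicates were separate cultures, and *P*-values measure the spread between these libraries only.

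Immediate-early genes are grouped by when they act. Signals that reach the MAP kinases ERK, JNK and p38 or raise calcium and cAMP activate the factors SRF, with its ternary complex partners, and CREB on the promoters of *Fos*, *Egr1* and *Nr4a1*, among others. The mRNAs of many of these genes are short-lived and carry AU-rich elements that ZFP36 binds. In hippocampal neurons, *Fos*, *Egr1* and *Arc* are widely used as markers of recent activity.

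Library totals ran from 30660265 to 36492134 counts. The level of Gas5, the targeted gene, was 90.4 and 76.0 CPM in NC, 59.7 CPM with siRNA210, 65.9 CPM in siRNA596 replicate 1 and 179 CPM in the library labelled siRNA596 replicate 2. Gas5 thus went against the label of the last library, which stood above both NC libraries. Results are therefore given first for 4 libraries without it and then for all 5, and no direction of KD is drawn from that library alone. Gas5 in the 4 libraries had a log2 fold change of -0.41 (SE 0.11), with an unadjusted *P* of 0.0038 and an adjusted *P* of 0.97 in edgeR's quasi-likelihood test. Of 13 neuronal markers 4 had a mean of at least 1 CPM and 4 were at 3 counts or fewer in every library. Among them *Snap25* had 0 counts in all 5 libraries and *Rbfox3* had 0 to 2 counts, so these defining markers of mature neurons were absent or nearly so. Of 9 glial and microglial markers 2 were at or above 1 CPM, and *Aqp4* had 0 counts in all 5 libraries. The summed neuronal level was 144 to 215 CPM and the summed glial level 25.4 to 44.5 CPM over the 5 libraries.

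In the 4 libraries GAS5 KD was accompanied by little difference in the 40 genes. Log2 fold changes of KD over NC (positive where KD was higher) ranged from -0.35 in *Arc* to 0.50 in *Ier3*, with 28 genes above 0 and 12 below. Their median was 0.0891, against -0.0023 over all 15867 genes tested. None of the 40 had an adjusted *P* under 0.05 with edgeR, and their adjusted *P*-values ran from 0.967 to 1.00. Over all genes 0 passed, which is 0% of those tested, and DESeq2 gave 1 gene in all and 0 of the 40. At an unadjusted *P* under 0.05 there was 1 of the 40, *Fosl1*, against a background of 3.3% of all genes (523), and DESeq2 gave 2 of the 40, against 2.09% of all genes. No member also had a fold change over 2, a criterion that 0.876% of all genes met. In bulk RNA, fewer cells of a type and less RNA per cell cannot be told apart. With all 5 libraries the median log2 fold change was 0.454, against 0.0112 over all 16142 genes tested. There, 0 of the 40 were under an unadjusted *P* of 0.05, against 0.372% of all genes. With an offset for exon length in the same 5 libraries the median was 0.37, against 0.0361 over all genes, and again 0 of the 40 were called, against 0.347% of all genes.

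**Figure D1:**
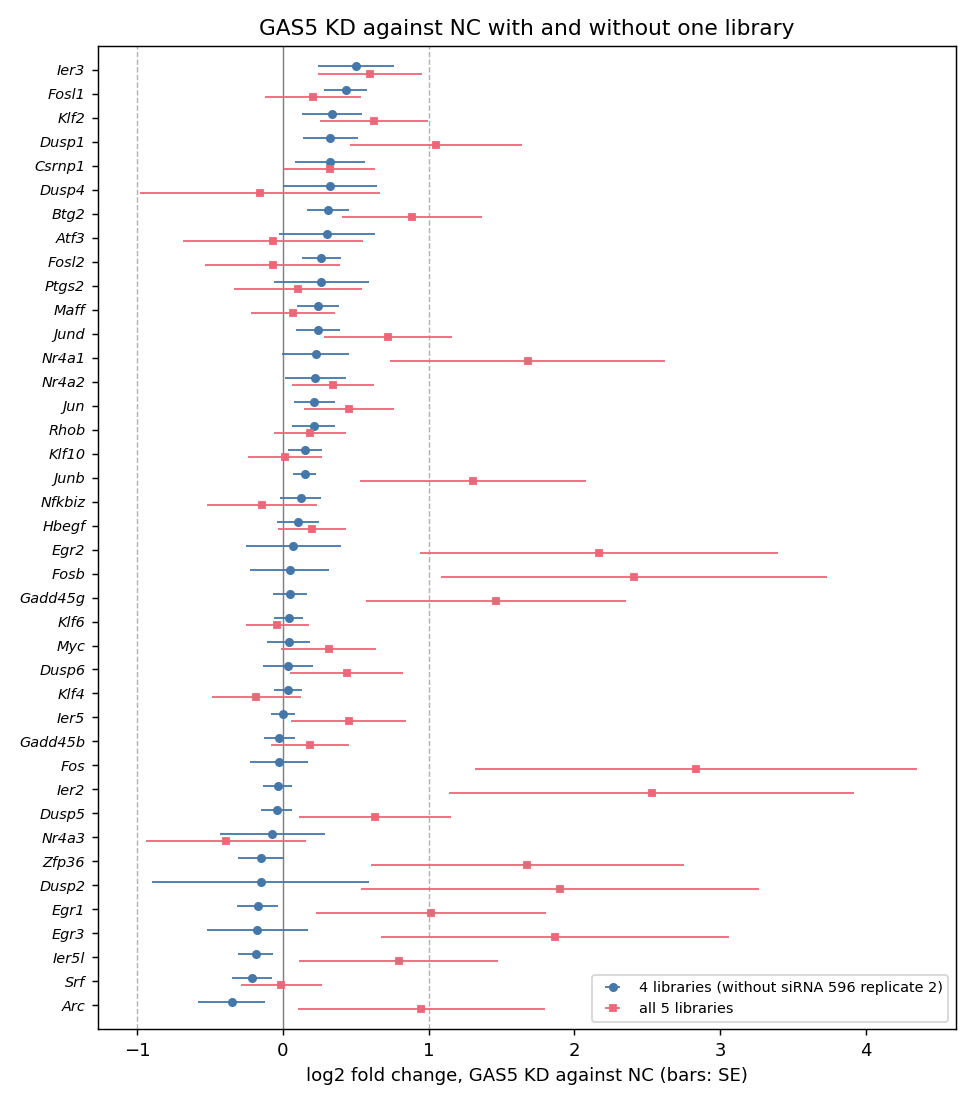
The log2 fold change of each of the 40 genes between GAS5 KD and NC on the x axis, with bars for the standard error. Blue circles are the fit of 4 libraries and lie between -0.35 and 0.50. Red squares are the fit of all 5 libraries and reach 2.83 in *Fos*, with wide bars. Dashed lines mark a fold change of 2.

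*Fosl1*, which encodes the AP-1 factor FRA1, was the member called without adjustment. It was at 13.3 and 11.3 CPM in NC, at 16.4 CPM with siRNA210 and at 16.8 CPM in siRNA596 replicate 1, and the groups did not overlap. The means were 12.3 ± 1.43 CPM in NC and 16.6 ± 0.335 CPM in KD (SD, n = 2 each). Its log2 fold change was 0.43 (SE 0.15), with an unadjusted *P* of 0.016 and an adjusted *P* of 0.97 in edgeR. The library labelled siRNA596 replicate 2 was below all of these, at 9.43 CPM, and with it the log2 fold change was 0.21 (SE 0.33, unadjusted *P* = 0.55 in edgeR). Without siRNA210 the edgeR unadjusted *P* was 0.066 and without siRNA596 replicate 1 it was 0.092, each with 1 KD library and the spread of the NC libraries. Exons of *Fosl1* overlap those of *Ccdc85b* on the opposite strand. The strand setting of the counting is not given, so the assignment of reads from their shared part is uncertain.

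Over the 4 libraries, both KD values lay above both NC values in 6 of the 40 genes (15%), against 16.7% of all genes. These were *Junb*, *Dusp1*, *Btg2*, *Nr4a2*, *Fosl2* and *Fosl1*. Both KD values lay below both NC values in 1 of the 40, *Arc*, against 16.2% of all genes. Both shares were at or below the background.

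The 4 libraries did not spread evenly, because NC replicate 2 stood apart in many of these genes. It was the lowest of the 4 libraries in 27 of the 40 genes, the highest in 9 and between the others in 4. Places were not counted over all genes, so these counts have no background. NC replicate 2 also stood apart over the whole table. The chi-square per gene of its counts against each of the others of the 4 was 25.75 to 34.67. Among those others it was 4.954 to 7.795. The log2 ratio of NC replicate 2 to NC replicate 1 had a median of -0.274 over the 40 genes, against -0.00827 over all 16142 genes, and a median size of 0.398 against 0.198. It was lower by over 1.5-fold in 8 of the 40 (20%), against 9.97% of all genes, and higher by over 1.5-fold in 1 of the 40, *Egr3*, against 7.72% of all genes. These are 2 libraries of the same label, so the ratios carry no test. In the same ratio 2 of 5 neuronal markers and 3 of 5 glial markers with enough counts were lower by over 1.5-fold, and their part in the result was not tested.

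**Figure D2:**
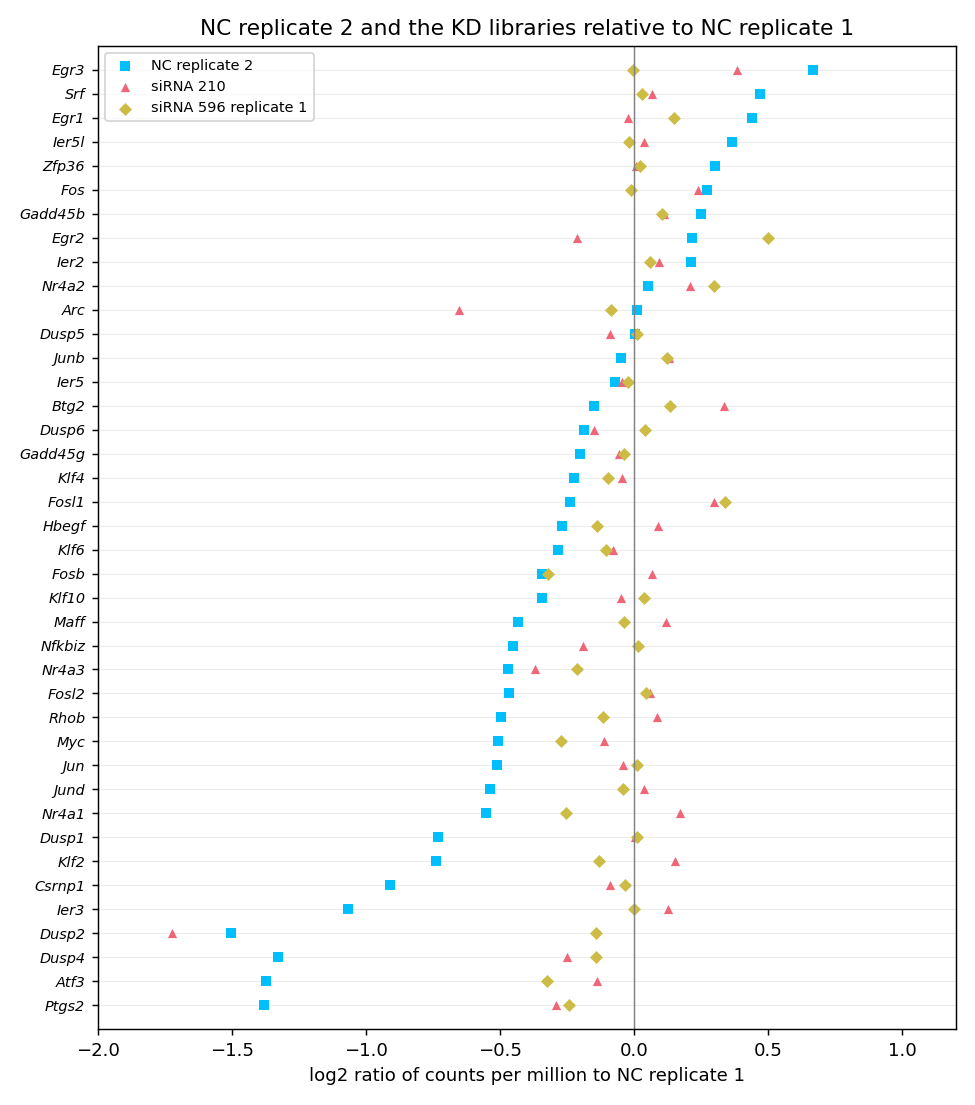
The log2 ratio of CPM to NC replicate 1 for the 40 genes, ordered by NC replicate 2 (light blue squares), with siRNA210 (red triangles) and siRNA596 replicate 1 (yellow diamonds). NC replicate 2 lies left of both KD libraries in most rows, at -1.38 in *Ptgs2*, while the KD libraries stay close to 0 in most genes.

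The genes with the widest gap between the NC libraries were *Ptgs2*, *Atf3*, *Dusp4* and *Dusp2*. *Ptgs2* encodes the inducible cyclooxygenase and was at 119.6 and 46.0 CPM in NC, at 97.7 CPM with siRNA210, at 101.1 CPM in siRNA596 replicate 1 and at 68.7 CPM in siRNA596 replicate 2. NC replicate 1 was the highest of the 5 libraries and NC replicate 2 the lowest. *Atf3*, a stress-induced bZIP factor, was at 43.9 and 16.9 CPM in NC and at 39.9 and 35.1 CPM in the KD libraries (siRNA210, then siRNA596 replicate 1), with 12.2 CPM in siRNA596 replicate 2. NC replicate 2 was thus the low one of the first 4 libraries. *Dusp4*, a nuclear phosphatase of ERK, was at 32.9 and 13.1 CPM in NC and at 27.7 and 29.8 CPM in the same KD libraries, with 4.36 CPM in siRNA596 replicate 2. NC replicate 2 was lower than NC replicate 1 by 2.60-fold in *Ptgs2*, 2.58-fold in *Atf3* and 2.50-fold in *Dusp4*. *Ier3*, an early gene linked to survival under stress, had 194 and 92.4 CPM in NC against 211 and 193 CPM in KD.

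The outcome of the comparison depended on which NC library was used. Without NC replicate 1, 21 of the 40 genes had an unadjusted *P* under 0.05 in edgeR, 18 of them higher and 3 lower in KD, against 16.5% of all genes. The 3 lower were *Egr1*, *Ier5l* and *Srf*, which were highest in NC replicate 2. Without NC replicate 2, 2 of the 40 were called, against 2.52% of all genes. One was *Fosl1* (log2 fold change 0.32, unadjusted *P* = 0.046 in edgeR) and the other *Ptgs2*, which was then lower in KD (log2 fold change -0.27, unadjusted *P* = 0.014 in edgeR). In both of these fits the lone NC library is assumed to vary like the KD libraries.

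Taken singly, siRNA210 was past 1.5-fold of the NC mean in 3 of the 40 genes, against 12.2% of all genes, and siRNA596 replicate 1 in 0 of the 40, against 11.5% of all genes. The 3 were *Ier3*, *Arc* and *Dusp2*. *Arc*, a cytoskeletal protein of synapses and a classic activity marker, was at 7.08 and 7.14 CPM in NC, at 4.50 CPM with siRNA210 and at 6.68 CPM in siRNA596 replicate 1. The siRNA210 library alone was low. In the fit of 4 libraries its log2 fold change was -0.35 (SE 0.23, unadjusted *P* = 0.16 in edgeR). Without siRNA596 replicate 1 it was -0.66 (unadjusted *P* = 0.043 in edgeR), in a fit that compares the siRNA210 library alone with NC and takes the spread from the NC libraries. With all 5 libraries it was 0.95 (SE 0.85).

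The largest differences in these genes separated the library labelled siRNA596 replicate 2 from the other 4. It lay above all 4 in 27 of the 40 genes, below all 4 in 10 and within their range in *Csrnp1*, *Ptgs2* and *Rhob*. These places were not counted over all genes, so they have no background. The library also stood apart over the whole table, with a chi-square per gene of 433.5 to 448.2 against the others. Relative to the mean of the other 4 on the log2 scale the library was higher by over 1.5-fold in 22 of the 40 genes (55%), against 28.2% of all genes. It was lower by over 1.5-fold in 7 (17.5%), against 33.2% of all genes. The median log2 ratio was 0.831, against -0.054 over all genes. There is 1 such library, so these values have no replicate check and no test. The members nearest to the 1.5-fold limit were *Jun*, at a log2 ratio of 0.74, and *Fosl1*, at -0.59, which passed it, and *Ier3*, at 0.57, and *Maff*, at -0.46, which did not.

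**Figure D3:**
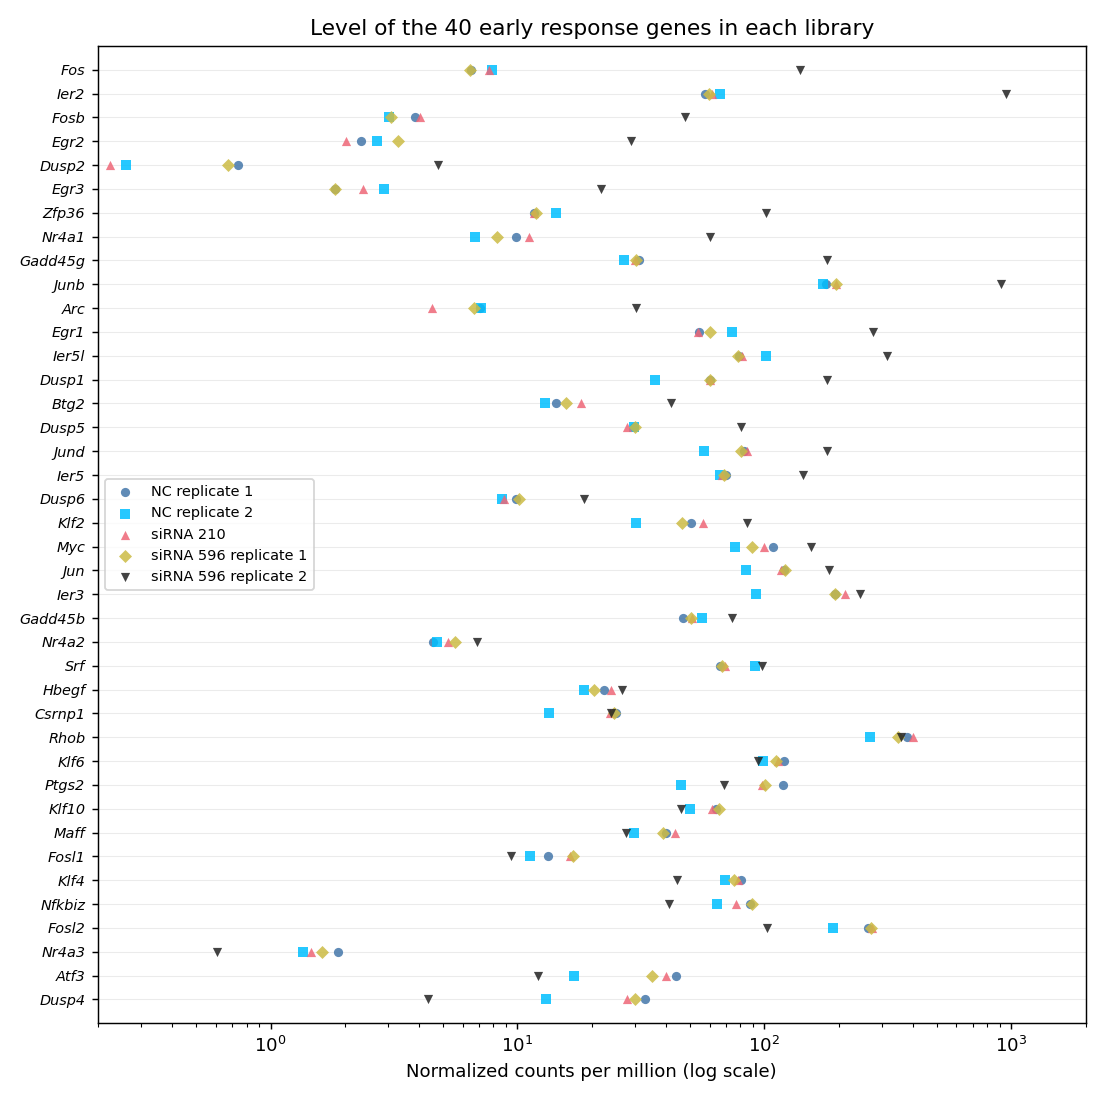
Level of each of the 40 genes in CPM on a log axis in each of the 5 libraries, ordered by the ratio of siRNA596 replicate 2 (black triangles) to the others. The black triangles lie far right of the other 4 libraries from *Fos* down to *Arc* and *Egr1*, and left of them at the bottom, in *Atf3* and *Dusp4*.

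That library also differed from the rest by transcript length. Over 10573 genes of at least 5 CPM its log2 ratio to the other libraries had a Spearman correlation of -0.639 with exon length, where each of the other 4 libraries lay between -0.176 and 0.104. Over all 16127 tested genes with a known length it was -0.374. This is a description across genes, which share a library. Over all tested genes the median log2 ratio ran from 0.691 in the shortest of 5 equal groups of genes to -0.795 in the longest. The 40 genes were slightly shorter than average, with a median exon length of 3053 bases against 3710 over all genes tested. Once the trend with length was subtracted, 19 of the 40 were still higher by over 1.5-fold, against 23.7% of all genes, and 7 were lower, against 27.4%. The median log2 ratio of the 40 was then 0.502, against -0.00656 over all genes. All 19 were among the 22 before the subtraction, and 6 of the 7 lower ones were lower before it. The rest of what sets this library apart was not tested.

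**Figure D4:**
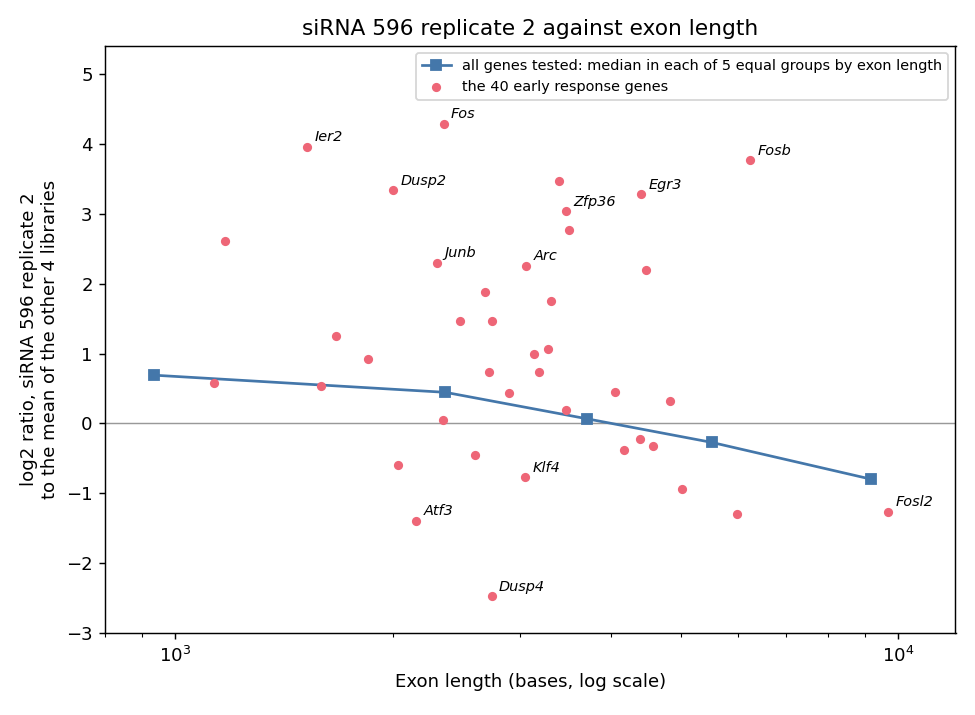
The log2 ratio of siRNA596 replicate 2 to the mean of the other 4 libraries against exon length on a log axis. Blue squares are medians over all genes tested in 5 equal groups by length and fall from 0.691 to -0.795, and red points are the 40 early response genes. *Fos*, *Ier2*, *Fosb* and *Egr3* lie far above the line and *Dusp4* and *Atf3* below it.

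The FOS and JUN families form AP-1, the dimeric factor that carries the first wave into later gene expression. *Fos* was at 6.51, 7.87, 7.69 and 6.46 CPM in NC replicates 1 and 2, siRNA210 and siRNA596 replicate 1, and the library labelled siRNA596 replicate 2 had 139.8 CPM. That was 19.5-fold the mean of the other 4 and the highest ratio of all 16142 genes. The log2 fold change in *Fos* was -0.03 (SE 0.20) with 4 libraries and 2.83 (SE 1.51, unadjusted *P* = 0.11 in edgeR) with all 5. *Fosb*, its close relative, was at 3.84, 3.02, 4.03 and 3.07 CPM in the same order and at 47.7 CPM in the last library, which gave the highest ratio of all genes after the length trend, 17.5-fold. In both genes NC and KD overlapped within the 4 libraries. *Junb* was at 178 and 173 CPM in NC, at 195 and 194 CPM in KD and at 912 CPM in siRNA596 replicate 2. Its KD libraries lay above its NC libraries by a log2 fold change of 0.15 (SE 0.08, unadjusted *P* = 0.083 in edgeR).

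The other AP-1 genes did not share the level of *Fos* and *Junb* in that library. *Jun* was at 120.1, 84.2, 117 and 121 CPM in the 4 libraries and at 182 CPM in siRNA596 replicate 2. *Jund* was at 82.7, 57.0, 84.8 and 80.5 CPM and at 180.1 CPM. In both, NC replicate 2 was the low library of the 4. *Fosl2*, which encodes FRA2, was at 263 and 190.0 CPM in NC and at 274 and 271 CPM in KD, and siRNA596 replicate 2 was lowest at 103 CPM. The same held for *Fosl1*, at 9.43 CPM, and for *Atf3*, at 12.2 CPM, which was 2.62-fold below the mean of the other 4 and 3.64-fold below after the length trend. *Maff*, a small MAF protein that pairs with other bZIP factors, was at 40.1, 29.7, 43.5 and 39.0 CPM in the 4 libraries and at 27.5 CPM in the last. Of the 9 AP-1 and related genes 5 were thus higher and 3 lower by over 1.5-fold in siRNA596 replicate 2, against 28.2% and 33.2% of all genes. The same shares are the background of the counts by family that follow. After the length trend 4 of these 9 genes were higher and 3 lower, against 23.7% and 27.4% of all genes. *Jun*, at a log2 ratio of 0.53, and *Fosl2*, at -0.52, were then within 1.5-fold, and *Maff*, at -0.82, was lower. Exons of 8 of the 40 genes overlap an annotated gene on the opposite strand (*Csrnp1*, *Dusp1*, *Dusp5*, *Fosl1*, *Jun*, *Junb*, *Jund* and *Zfp36*), and their counts are uncertain in the shared part.

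The EGR zinc-finger factors are targets of ERK and SRF. *Egr1* was at 54.5 and 74.0 CPM in NC and at 53.7 and 60.4 CPM in KD, and siRNA596 replicate 2 had 277 CPM, 4.60-fold the mean of the other 4. *Egr2* was at 2.33 and 2.71 CPM in NC, at 2.01 CPM with siRNA210, at 3.30 CPM in siRNA596 replicate 1 and at 28.9 CPM in replicate 2. *Egr3* was at 1.82, 2.89, 2.38 and 1.82 CPM in the 4 libraries and at 21.7 CPM in the last. All 3 EGR genes lay far above the range of the other libraries in that single library, whereas within the 4 libraries their NC and KD values overlapped. *Srf*, the factor itself, was at 66.05 and 91.6 CPM in NC, at 69.1 and 67.5 CPM in KD and at 98.2 CPM in siRNA596 replicate 2. It stayed within 1.5-fold there, and its highest level of the 4 libraries was in NC replicate 2.

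The NR4A genes encode orphan nuclear receptors that are induced by cAMP and calcium. *Nr4a1* was at 9.87 and 6.73 CPM in NC, at 11.1 and 8.27 CPM in KD and at 60.5 CPM in siRNA596 replicate 2. *Nr4a2* was at 4.55 and 4.72 CPM in NC and at 5.26 and 5.59 CPM in KD, a log2 fold change of 0.22 (SE 0.21, unadjusted *P* = 0.31 in edgeR), and at 6.86 CPM in the last library. *Nr4a3* was at 1.88, 1.36, 1.45 and 1.62 CPM in the 4 libraries and at 0.606 CPM in siRNA596 replicate 2. In that library *Nr4a1* was thus high, *Nr4a2* within 1.5-fold of the others and *Nr4a3* low.

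Of the KLF factors and *Myc*, 2 of 5 were higher and 1 was lower by over 1.5-fold in siRNA596 replicate 2. *Klf2* was at 50.6, 30.3, 56.3 and 46.2 CPM in the 4 libraries and at 85.0 CPM in siRNA596 replicate 2. *Klf6* was at 119.9, 98.6, 113 and 112 CPM and at 94.4 CPM in the last, and *Klf10*, induced by TGF-beta, at 63.7, 50.2, 61.5 and 65.3 CPM and at 46.0 CPM. *Klf4*, a factor known from reprogramming, was at 80.8, 69.2, 78.3 and 75.6 CPM and at 44.4 CPM. All 4 KLF genes and *Myc* had their lowest level of the 4 libraries in NC replicate 2. *Myc*, a driver of growth and division, was at 108 and 76.1 CPM in NC, at 100.01 and 89.6 CPM in KD and at 155 CPM in siRNA596 replicate 2. After the length trend none of these 5 was higher by over 1.5-fold in that library, and *Klf4* was lower.

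Among the IER genes, *Ier2*, a small nuclear protein of the first wave, followed *Fos*. It was at 57.3 and 66.4 CPM in NC, at 61.2 and 59.8 CPM in KD and at 951 CPM in siRNA596 replicate 2, which was 15.6-fold the mean of the other 4. Per kilobase of exon *Ier2* ranked 5 among the 40 genes in the mean of the 4 libraries, at 40.2 CPM per kb, and first in that library, at 625 CPM per kb. *Ier5* was at 69.7 and 66.3 CPM in NC, at 67.6 and 68.7 CPM in KD and at 143 CPM in siRNA596 replicate 2. Its relative *Ier5l* was at 79.2, 102, 81.3 and 78.2 CPM in the 4 libraries and at 313 CPM. *Ier3* behaved otherwise, at 245 CPM in siRNA596 replicate 2 and below 1.5-fold with or without the length trend, while its low library was NC replicate 2. Per kilobase *Ier3* was the highest of the 40 in the mean of the 4 libraries, at 153 CPM per kb, followed by *Rhob* at 149 CPM per kb. *Csrnp1*, a nuclear protein induced by AXIN1, was at 25.1 and 13.4 CPM in NC, at 23.6 and 24.5 CPM in KD and at 24.0 CPM in the last library.

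The dual-specificity phosphatases remove phosphate from MAP kinases and so limit the signal that induces them. *Dusp1*, which acts on p38, JNK and ERK in the nucleus, was at 60.1 and 36.2 CPM in NC and at 60.3 and 60.5 CPM in KD, with 179 CPM in siRNA596 replicate 2. NC replicate 1 and the KD libraries were level with each other. *Dusp2* had 26 and 10 counts in NC, 8 counts with siRNA210, 24 counts in siRNA596 replicate 1 and 126 counts in replicate 2. *Dusp5*, a nuclear phosphatase of ERK, was at 29.6 and 29.7 CPM in NC, at 27.8 and 29.8 CPM in KD and at 80.5 CPM in the last library. *Dusp6*, its cytoplasmic counterpart, was at 9.84, 8.65, 8.86 and 10.1 CPM in the 4 libraries and at 18.6 CPM. These 4 were higher by over 1.5-fold in siRNA596 replicate 2, also after the length trend. *Dusp4* went the other way, at 4.36 CPM, 5.55-fold below the mean of the other 4 libraries and the lowest ratio of the 40 genes. After the length trend it was 6.94-fold below.

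Among the other genes of the list, *Zfp36* and *Btg2* encode proteins that restrain inflammation or growth. *Zfp36* encodes tristetraprolin, which destabilizes AU-rich mRNAs. It was at 11.7 and 14.4 CPM in NC, at 11.7 and 11.9 CPM in KD and at 102 CPM in siRNA596 replicate 2. *Btg2*, an antiproliferative cofactor of mRNA deadenylation, was at 14.3 and 12.9 CPM in NC, at 18.1 and 15.7 CPM in KD and at 41.9 CPM in the last library. Its log2 fold change in the 4 libraries was 0.31 (SE 0.14, unadjusted *P* = 0.060 in edgeR). *Gadd45g* was at 31.1, 27.1, 29.9 and 30.3 CPM in the 4 libraries and at 180.0 CPM in siRNA596 replicate 2. The related stress gene *Gadd45b* was at 47.0, 55.9, 50.8 and 50.6 CPM and at 74.2 CPM, which was within 1.5-fold. *Nfkbiz*, a nuclear modulator of NF-kB, was at 87.8, 64.3, 77.0 and 88.8 CPM and at 40.9 CPM in the last library, below all others.

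Of the effectors, *Arc* reached 30.1 CPM in siRNA596 replicate 2. *Rhob*, a small GTPase, was at 379 and 269 CPM in NC, at 402 and 349.5 CPM in KD and at 356 CPM in the last library. *Hbegf*, a ligand of the EGF receptor, was at 22.4, 18.6, 23.8 and 20.3 CPM in the 4 libraries and at 26.6 CPM. *Ptgs2* and *Rhob* lay within the range of the other libraries in siRNA596 replicate 2, so of the 4 effectors *Arc* alone was higher by over 1.5-fold.

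Of the 10 genes with the highest ratio of siRNA596 replicate 2 to the other 4 libraries among all 16142, 6 were members: *Fos*, *Ier2*, *Fosb*, *Egr2*, *Dusp2* and *Egr3*. After the length trend 5 of the highest 10 were members: *Fosb*, *Fos*, *Egr3*, *Ier2* and *Egr2*. The 7 members that were lower by over 1.5-fold after the trend were *Dusp4*, *Atf3*, *Fosl1*, *Klf4*, *Nr4a3*, *Maff* and *Nfkbiz*.

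Promoters are shown for the genes at both ends of that order, since their levels moved apart in the same library. RefSeq promoters (GRCm38.p6) were matched by symbol for 30 of the 40 genes, with 39 entries. The windows are the 250 bases before the annotated start, 5′ to 3′ on the gene's strand. They were taken from genes of at least 1 CPM with a single entry and at most 30 bases over annotated exons, for the 4 highest and the 2 lowest after the length trend. Capitals mark TGACG (the core of a cAMP response element, on either strand, so CGTCA in capitals is the same letters on the other strand) and TATAAA.
Fosb: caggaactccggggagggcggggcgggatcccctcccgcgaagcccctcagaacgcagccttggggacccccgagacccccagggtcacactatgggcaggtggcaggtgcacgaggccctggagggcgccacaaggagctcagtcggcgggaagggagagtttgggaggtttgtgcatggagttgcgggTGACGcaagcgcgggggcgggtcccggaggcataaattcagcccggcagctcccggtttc
Fos: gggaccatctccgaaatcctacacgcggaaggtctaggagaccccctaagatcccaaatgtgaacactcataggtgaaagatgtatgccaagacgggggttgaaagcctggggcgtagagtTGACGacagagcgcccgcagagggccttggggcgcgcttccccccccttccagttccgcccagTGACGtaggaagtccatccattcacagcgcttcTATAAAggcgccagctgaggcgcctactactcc
Nr4a1: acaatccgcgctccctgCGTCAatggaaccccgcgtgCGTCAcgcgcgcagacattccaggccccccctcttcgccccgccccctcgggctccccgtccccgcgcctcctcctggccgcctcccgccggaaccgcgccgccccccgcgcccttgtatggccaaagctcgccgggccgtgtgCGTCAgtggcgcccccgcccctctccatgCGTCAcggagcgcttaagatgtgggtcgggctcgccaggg
Gadd45g: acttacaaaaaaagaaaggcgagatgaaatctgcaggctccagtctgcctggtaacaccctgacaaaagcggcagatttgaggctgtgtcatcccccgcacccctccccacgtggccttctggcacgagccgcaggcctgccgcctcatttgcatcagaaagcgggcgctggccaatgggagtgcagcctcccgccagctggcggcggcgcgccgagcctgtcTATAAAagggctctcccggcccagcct
Atf3: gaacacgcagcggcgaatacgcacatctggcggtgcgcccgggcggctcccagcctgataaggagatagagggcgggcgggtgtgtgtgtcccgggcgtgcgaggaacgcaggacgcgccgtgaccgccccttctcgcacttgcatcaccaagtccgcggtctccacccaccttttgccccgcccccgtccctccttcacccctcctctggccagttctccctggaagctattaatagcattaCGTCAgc
Klf4: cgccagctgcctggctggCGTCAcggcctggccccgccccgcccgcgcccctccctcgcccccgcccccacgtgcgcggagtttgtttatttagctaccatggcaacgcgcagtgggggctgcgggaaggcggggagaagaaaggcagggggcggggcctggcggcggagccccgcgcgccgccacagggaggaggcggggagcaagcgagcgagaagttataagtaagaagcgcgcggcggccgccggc

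TGACG stood at -60 to -56 in the *Fosb* window (chr7:19310046-19310295, minus strand, build GRCm38.p6). In *Fos* (chr12:85473640-85473889, plus strand) it stood at -129 to -125 and at -66 to -62, with TATAAA at -33 to -28. *Nr4a1* (chr15:101266596-101266845, plus strand) held it at 4 places, from -233 to -36. *Gadd45g* (chr13:51846425-51846674, plus strand) held TATAAA at -27 to -22 and no TGACG. The low genes held TGACG too, at -7 to -3 in *Atf3* (chr1:191183334-191183583, minus strand) and at -232 to -228 in *Klf4* (chr4:55532476-55532725, minus strand).

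Over the 39 promoter entries of the 30 genes, TGACG was present in 22 (56.4%), against 17.8% of all 32851 promoters searched in the same way. The full element TGACGTCA, which contains TGACG, was present in 3 (7.69%), against 1.55%, in *Btg2*, *Dusp1* and *Maff*. The CArG box, the SRF motif, was present in 7 entries (17.9%), against 1.47%. These entries belong to 4 of the 30 genes (13.3%), *Dusp5*, *Egr2*, *Srf* and *Zfp36*, so some genes count more than once. Only the 250 bases before each annotated start were searched. A CArG box farther upstream, in *Fos* or any other gene, would not have been found, and *Egr1* had no entry. GGGCGG, the letters of an SP1 site, was in 71.8% of entries against 32.7%, TATAAA in 12.8% against 12.4%, and the AP-1 letters TGANTCA in 2.56% against 6.75%. Both strands were searched for each. Among genes past 1.5-fold after the length trend, TGACG was in 8 of 15 with higher levels and in 4 of 4 with lower levels in siRNA596 replicate 2, so it did not separate them. A match is a description of letters, not a bound site.

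The AU-rich nonamer TTATTTATT was present in the annotated 3′ UTR of the longest transcript in 8 of the 40 genes (20%), against 8.1% of 12695 genes tested that have such a UTR. The 8 were *Csrnp1*, *Dusp1*, *Fos*, *Fosl2*, *Maff*, *Ptgs2*, *Srf* and *Zfp36*. They include genes that were high, low and within range in siRNA596 replicate 2. It was present in 3 of the 19 members that were higher after the length trend and in 1 of the 7 that were lower.

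Genes around this response were read from further lists. Among 33 genes of MAPK, SRF and CREB signalling, 1 was higher and 2 were lower in KD at an unadjusted *P* under 0.05 in the 4 libraries, and 0 passed adjustment. The 3 were *Crebbp*, the CREB-binding acetyltransferase (log2 fold change -0.27, SE 0.10), *Sos1*, which activates RAS (-0.22, SE 0.09), and *Rps6ka1*, a kinase downstream of ERK (0.22, SE 0.09). The median log2 fold change of the 33 was -0.0351. Feedback inhibitors such as Sprouty, Spred and SOCS proteins gave 0 of 17 in either direction, the closest being *Socs3* with a log2 fold change of 0.33 (SE 0.15, unadjusted *P* = 0.050 in edgeR), then *Spred2* at 0.13 (SE 0.09) and *Dusp3* at 0.21 (SE 0.15).

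Of 32 tested further early response genes 2 were higher and 1 was lower at an unadjusted *P* under 0.05. *Ccn2*, a matricellular protein also named CTGF, was at 19.4 and 38.8 CPM in NC, at 19.3 and 15.1 CPM in KD and at 137 CPM in siRNA596 replicate 2. Its log2 fold change was -0.77 (SE 0.28, unadjusted *P* = 0.021 in edgeR) with 4 libraries and 0.97 with all 5, so its direction turned. *Bhlhe40*, a transcriptional repressor, had a log2 fold change of 0.33 (SE 0.13), and *Sik1*, a kinase that restrains CREB coactivators, one of 0.29 (SE 0.10). Of these 32 genes 11 were higher and 8 lower by over 1.5-fold in siRNA596 replicate 2, and 13 and 7 after the length trend, against 28.2% and 33.2% of all genes before the trend and 23.7% and 27.4% after it.

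The 17 AU-rich element and early mRNA decay factors gave 0 calls in either direction, with *Btg1* at a log2 fold change of 0.25 (SE 0.11), *Cnot6* at -0.19 (SE 0.08) and *Cnot6l* at -0.16 (SE 0.10). The 14 tested SRF and cytoskeletal target genes gave 0 calls as well. Among them *Acta2*, smooth muscle actin, was at 136 and 271 CPM in NC, at 157 and 152 CPM in KD and at 727 CPM in siRNA596 replicate 2. *Actb* had a log2 fold change of -0.12 (SE 0.08) and *Tpm1* one of -0.13 (SE 0.09). Of these 14 genes 9 were higher by over 1.5-fold in that library and 3 lower, against the 28.2% and 33.2% of all genes given above. After the length trend 7 were higher and 2 lower, against 23.7% and 27.4%. The remaining lists had more genes lower than higher in that library before the trend, against the same 28.2% and 33.2%. Before the trend, 4 of the 33 signalling genes were higher and 17 lower. Of the 17 feedback inhibitors 2 were higher and 7 lower, and of the 17 decay factors 1 was higher and 6 were lower. After the length trend 3 signalling genes were higher and 8 lower, against 23.7% and 27.4% of all genes. Of the feedback inhibitors 0 were then higher and 5 lower, and of the decay factors 3 were higher and 3 lower.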

How the data were processed

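Total RNA was extracted with TRIzol and libraries were made with the NEBNext Ultra kit. Per the labels the authors used HISAT2 2.1.0, SAMtools 1.7, featureCounts 2.0.1 and DESeq2 1.26.0 on GRCm38. The deposited counts are whole reads per gene with no normalization, and the strand setting is not given in the sources used here. The authors' deposited table of fold changes and *P*-values was not used.

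Counts were normalized by TMM and tested with edgeR 4.0.16 (glmQLFit, glmQLFTest, filterByExpr) in R 4.3.3 across all genes, with Benjamini-Hochberg adjustment. DESeq2 1.42.0, other scalings and filters, left-out libraries, a replicate block and exon length offsets (loess, span 0.5) served as alternatives. Ratios between single libraries used log2 CPM with a prior count of 2 and a limit of 1.5-fold. Gene IDs that GENCODE M21 does not hold took at most 0.00625% of the reads of a library. Levels of 3 counts or fewer were treated as the floor. Exon lengths came from GENCODE M21. All 40 members were accounted for, and from each further list the 3 genes of lowest unadjusted *P* (4 libraries) were named. The members and lists were chosen with earlier results of these data known. The steps were tested on simulated data. Figures used matplotlib 3.10.9.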

Additional observations from a re-analysis of the deposited data

Results flagged for a closer look

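*Egr2* and *Dusp5* were picked out because the siRNA210 library lay below both NC libraries while both siRNA596 libraries lay above them. The log2 ratio of siRNA210 to the NC mean was -0.313 in *Egr2* and -0.091 in *Dusp5*. In *Dusp5* the gap was small, with 29.82 CPM in siRNA596 replicate 1 against 29.60 and 29.72 CPM in NC. *Egr2* had 118 counts in siRNA596 replicate 1, 82 and 104 counts in NC and 72 counts with siRNA210. The difference between the 2 siRNAs was not tested. There is 1 library of siRNA210, and 1 of the 2 siRNA596 libraries is the one in which Gas5 went against its label.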

How the results depend on the processing

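All values rest on 1 or 2 libraries a group, or on 3 of KD when all 5 enter. The 4 libraries gave 1 gene of the 40 at an unadjusted *P* under 0.05. The count was 0 with all 5 libraries, 0 with the exon length offset, 0 with an offset for the longest transcript, 0 with the offset fitted on genes of at least 5 CPM (chosen after seeing the data), 3 with no filter (*Fosl1*, *Fosl2* and *Ier3*; 924 of 26899 genes in all) and 2 with the DESeq2 Wald test (*Fosl1* and *Fosl2*; 331 of 15867 in all). Leaving out 1 library gave 0 to 21 members, with 21 without NC replicate 1 (2776 of 16873 genes in all), 2 without NC replicate 2 (422 of 16763), 1 without siRNA596 replicate 1 (*Arc*; 354 of 16879) and 0 without siRNA210 (170 of 16894). Each of these fits has a group of 1 library, which is assumed to vary like the other group. With a fold change over 2 as well, the range was 0 to 4. The number of members above 0 was 18 to 29 and the median log2 fold change -0.00857 to 0.237 over the same fits, with 18 without NC replicate 2. The median was 0.454 with all 5 libraries, 0.37 with the exon length offset and 0.434 with the longest transcript. No member had an adjusted *P* under 0.05 in any of these fits. The ratios between single libraries gave counts within 1.5 times of those above under other settings. The settings were a prior count of 0.5, library size only and the length of the longest transcript. A trend fitted on genes of at least 5 CPM was added after seeing the data. With library size only, 20 members were higher and 10 lower in siRNA596 replicate 2 before the trend, in place of 22 and 7. With the trend from genes of at least 5 CPM, 18 were higher and 9 lower after it, in place of 19 and 7. With the longest transcript 20 were higher after the trend.

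The replicate numbers of siRNA596 and NC are shared in the labels, and the correlation of their deviations was 0.0948 across 16142 genes. One of these deviations contains siRNA596 replicate 2, which stood apart from every other library. The value therefore cannot tell whether the replicates were paired. With siRNA596 alone against NC, 3 members had an unadjusted *P* under 0.05 in edgeR without the replicate block (*Egr2*, *Fos* and *Ier2*), all 3 with a fold change over 2, and the median log2 fold change was 0.63. All genes gave 41 of 15827. With the replicate block there were 11, all 11 with a fold change over 2, the median was 0.572, and all genes gave 428 of 15827. Both fits contain the library labelled siRNA596 replicate 2, and the cause was not tested.

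Several log2 fold changes between KD and NC turned direction against the fit of 4 libraries, and the cause was not tested. With all 5 libraries these were *Fos* 2.83, *Fosl2* -0.069, *Egr1* 1.02, *Egr3* 1.87, *Ier2* 2.53, *Ier5l* 0.80, *Atf3* -0.065, *Klf4* -0.18, *Klf6* -0.037, *Dusp4* -0.16, *Dusp5* 0.63, *Arc* 0.95, *Zfp36* 1.68, *Gadd45b* 0.19 and *Nfkbiz* -0.14. *Dusp2*, under 1 CPM and left out of these lists, turned from -0.15 to 1.90 with all 5 libraries and to 1.59 with the exon length offset. With the exon length offset these were *Fos* 2.52, *Egr1* 1.06, *Egr3* 1.91, *Ier2* 2.15, *Ier5l* 0.61, *Atf3* -0.12, *Klf4* -0.24, *Klf6* -0.028, *Dusp4* -0.19, *Dusp5* 0.45, *Arc* 0.80, *Zfp36* 1.58, *Maff* -0.0086, *Gadd45b* 0.012 and *Nfkbiz* -0.11. With an offset for the longest transcript these were *Fos* 2.54, *Egr1* 1.28, *Egr3* 2.05, *Ier2* 2.102, *Ier5l* 0.70, *Atf3* -0.12, *Klf4* -0.20, *Dusp4* -0.17, *Dusp5* 0.51, *Arc* 0.93, *Zfp36* 1.59, *Maff* -0.024 and *Nfkbiz* -0.087. With the offset fitted on genes of at least 5 CPM these were *Fos* 2.22, *Egr1* 1.00, *Egr3* 1.83, *Ier2* 1.65, *Ier5l* 0.44, *Atf3* -0.17, *Klf4* -0.28, *Klf6* -0.057, *Klf10* -0.016, *Dusp4* -0.21, *Dusp5* 0.28, *Arc* 0.65, *Zfp36* 1.44, *Maff* -0.075, *Rhob* -0.019 and *Nfkbiz* -0.13. With siRNA596 alone against NC and no replicate block these were *Fos* 3.35, *Fosl2* -0.28, *Egr1* 1.40, *Egr3* 2.32, *Ier2* 3.04, *Ier5l* 1.11, *Atf3* -0.36, *Klf4* -0.32, *Klf6* -0.082, *Klf10* -0.030, *Dusp4* -0.43, *Dusp5* 0.90, *Arc* 1.38, *Zfp36* 2.13, *Srf* 0.077, *Maff* -0.066, *Gadd45b* 0.28 and *Nfkbiz* -0.23. With the replicate block these were *Fos* 2.09, *Fosl2* -0.42, *Egr1* 1.03, *Egr3* 1.499, *Ier2* 1.96, *Ier5l* 0.80, *Atf3* -0.40, *Klf4* -0.36, *Klf6* -0.080, *Klf10* -0.041, *Dusp4* -0.85, *Dusp5* 0.73, *Arc* 1.01, *Zfp36* 1.43, *Srf* 0.070, *Maff* -0.072, *Gadd45b* 0.26 and *Nfkbiz* -0.31. With library size only it was *Ier5* -0.017. With at least 10 counts in every library it was *Ier5* -0.0027. Over fits that left out 1 library, the log2 fold changes of genes that turned ranged as follows, from lowest to highest: *Fos* -0.16 to 0.12, *Fosb* -0.16 to 0.23, *Jun* -0.015 to 0.49, *Jund* -0.00049 to 0.53, *Egr1* -0.38 to 0.067, *Egr2* -0.33 to 0.38, *Egr3* -0.47 to 0.20, *Ier2* -0.14 to 0.078, *Ier5* -0.032 to 0.037, *Ier5l* -0.36 to 0.011, *Atf3* -0.23 to 1.14, *Myc* -0.19 to 0.32, *Klf4* -0.07 to 0.15, *Klf6* -0.091 to 0.19, *Klf10* -0.0052 to 0.33, *Dusp4* -0.20 to 1.13, *Dusp5* -0.095 to 0.0044, *Dusp6* -0.065 to 0.13, *Nr4a1* -0.024 to 0.53, *Nr4a3* -0.29 to 0.18, *Zfp36* -0.29 to 0.016, *Srf* -0.42 to 0.049, *Gadd45b* -0.14 to 0.11, *Gadd45g* -0.046 to 0.15, *Rhob* -0.012 to 0.48, *Hbegf* -0.020 to 0.25, *Ptgs2* -0.27 to 1.11, *Csrnp1* -0.061 to 0.85 and *Nfkbiz* -0.083 to 0.37.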
